A study of Arabidopsis thaliana with 15 samples.

Results

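The 10 genes described here are alpha-expansins that were measured in leaves: *EXPA1* (AT1G69530), *EXPA3* (AT2G37640), *EXPA4* (AT2G39700), *EXPA5* (AT3G29030), *EXPA6* (AT2G28950), *EXPA8* (AT2G40610), *EXPA10* (AT1G26770), *EXPA11* (AT1G20190), *EXPA15* (AT2G03090) and *EXPA16* (AT3G55500). They were chosen by locus, with *EXPA16* picked out because it had the largest increase among them in both plants with reduced ANAC046 function. The choice therefore rests on the comparisons of KO and SRDX plants with WT plants, and those values are given below as a description with no test. The 10 genes were covered by 16 of the 43603 probes on the array, and the array covered 25410 loci in all. In WT leaves, 9 of the 10 genes were well above background on every array and *EXPA4* on 2 of 3.

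Expansins are secreted proteins that loosen the plant cell wall without cutting its polymers, by weakening the contacts between cellulose and the matrix that surrounds it. They act best at acidic pH and are known for letting cells enlarge, so that leaf alpha-expansins are usually most active while a leaf is still growing. *EXPA10* is known for its effect on leaf size, *EXPA1* is active in guard cells, and *EXPA5* is linked to growth under brassinosteroids. The relatives *EXPB*, *EXLA* and *EXLB* form the other branches of the family, and the XTH enzymes loosen walls in another way, by cutting and rejoining xyloglucan.

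ANAC046 is a NAC transcription factor studied for its part in leaf senescence. All plants were *Arabidopsis thaliana* of the ecotype Col-0, in 5 groups of 3 arrays. OX plants carried *35S:ANAC046:NOS*, and their untreated leaves were taken at 50 days after sowing (DAS) together with leaves of WT plants. KO plants (*anac046*, 1 transposon line), SRDX plants (*35S:ANAC046-SRDX:NOS*, which adds a repression domain to ANAC046) and WT plants were taken at 5 days after the start of dark treatment (DAD). The 35S promoter drives its gene in most tissues. The arrays of OX and of SRDX stood for independent lines, 1 array a line, which are called here line 1, 2 or 3 after the replicate number. The Methods call the arrays of a group biological replicates. The labels describe the dark-treated material as seedlings on agar under foil, and the Methods describe it as leaves.

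*ANAC046* itself served as a check of the labels. Its log2 signals, relative to the median spot of the array, were 2.64, 8.95 and 9.01 in OX lines 1, 2 and 3, against 0.42, 0.54 and 0.77 in WT leaves. Line 1 carried far less of the transgene signal than the other two lines. At 5 DAD the signals were −4.63, −4.38 and −4.53 in KO plants and 6.29, 6.42 and 6.29 in SRDX plants, against 5.11, 5.35 and 5.22 in WT plants. None of the KO arrays had the probe well above background, and its signal was lower there than in WT by at least 272-fold (adjusted p = 1.2e-08, limma with Benjamini-Hochberg adjustment). Such a bound sets the brighter group against the lowest signal well above background on each array of the dimmer group, or the probe's own signal where that is higher.

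On the leaf arrays, 62.2 to 68.7% of spots passed Agilent's flag for signal well above background. On the arrays at 5 DAD, 67.0 to 68.7% passed it in KO, 68.4 to 77.6% in SRDX, with line 3 the lowest, and 76.3 to 80.9% in WT. OX and WT arrays at 50 DAS lay on a slide each, the WT arrays at 5 DAD on the third, the first pair of SRDX lines on the fourth, and the last SRDX line on the fifth, together with all KO arrays. Slide and genotype therefore cannot be told apart in any comparison with WT. The precision of all values is limited by the 3 arrays per group.

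All 10 alpha-expansins had lower signals in dark-treated WT plants than in WT leaves at 50 DAS, with no overlap of the arrays. *EXPA8* had log2 signals of −2.29, −1.85 and −2.47 in the dark-treated plants, against 6.35, 6.63 and 6.66 in leaves. *EXPA1* had 1.05, 0.82 and 0.70 in the dark, against 7.34, 7.20 and 7.30 in leaves. Each set of 3 arrays lay close together, and the distance between the sets was many times their spread.

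The fold differences between dark-treated WT plants and WT leaves were 430 for *EXPA8*, 130 for *EXPA11*, 120 for *EXPA16*, 97.5 for *EXPA6*, 85.7 for *EXPA1* and 18.7 for *EXPA3*, all lower in the dark. *EXPA16* was well above background on 1 of the 3 dark-treated WT arrays, and the other 5 on all of them. The probes used for *EXPA4*, *EXPA5*, *EXPA10* and *EXPA15* were not well above background on any dark-treated array of any genotype, and of the second probes of *EXPA5* and *EXPA10*, that of *EXPA5* was so on 1 KO array. These 4 genes were at least 235-fold lower in dark-treated WT plants than in WT leaves for *EXPA5*, at least 18.7-fold for *EXPA10*, at least 5.27-fold for *EXPA15* and at least 3.9-fold for *EXPA4*.

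The median log2 difference of the 10 genes, dark-treated WT minus WT leaves, was −6.51, against 0.13 over 25674 genes with an SD of 2.32. Here, and in the counts over all genes tested below, genes include probes with no locus, counted by their name. Of the 25674, 39.1% had all 3 dark-treated arrays below all 3 leaf arrays. Tissue label, growth medium, age, light, slide and scan day all differ between these 2 groups and cannot be told apart, so no test was made. In bulk samples, fewer cells of a type and less RNA per cell cannot be told apart either. The 6 leaf markers (3 small subunit genes of Rubisco, *CA1*, *LHCB2.1* and *PSAD-1*) were well above background on every array, but their summed signal was 504 to 555 times the array median in dark-treated WT plants and 6870 to 7230 times in WT leaves.

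**Figure D1:**
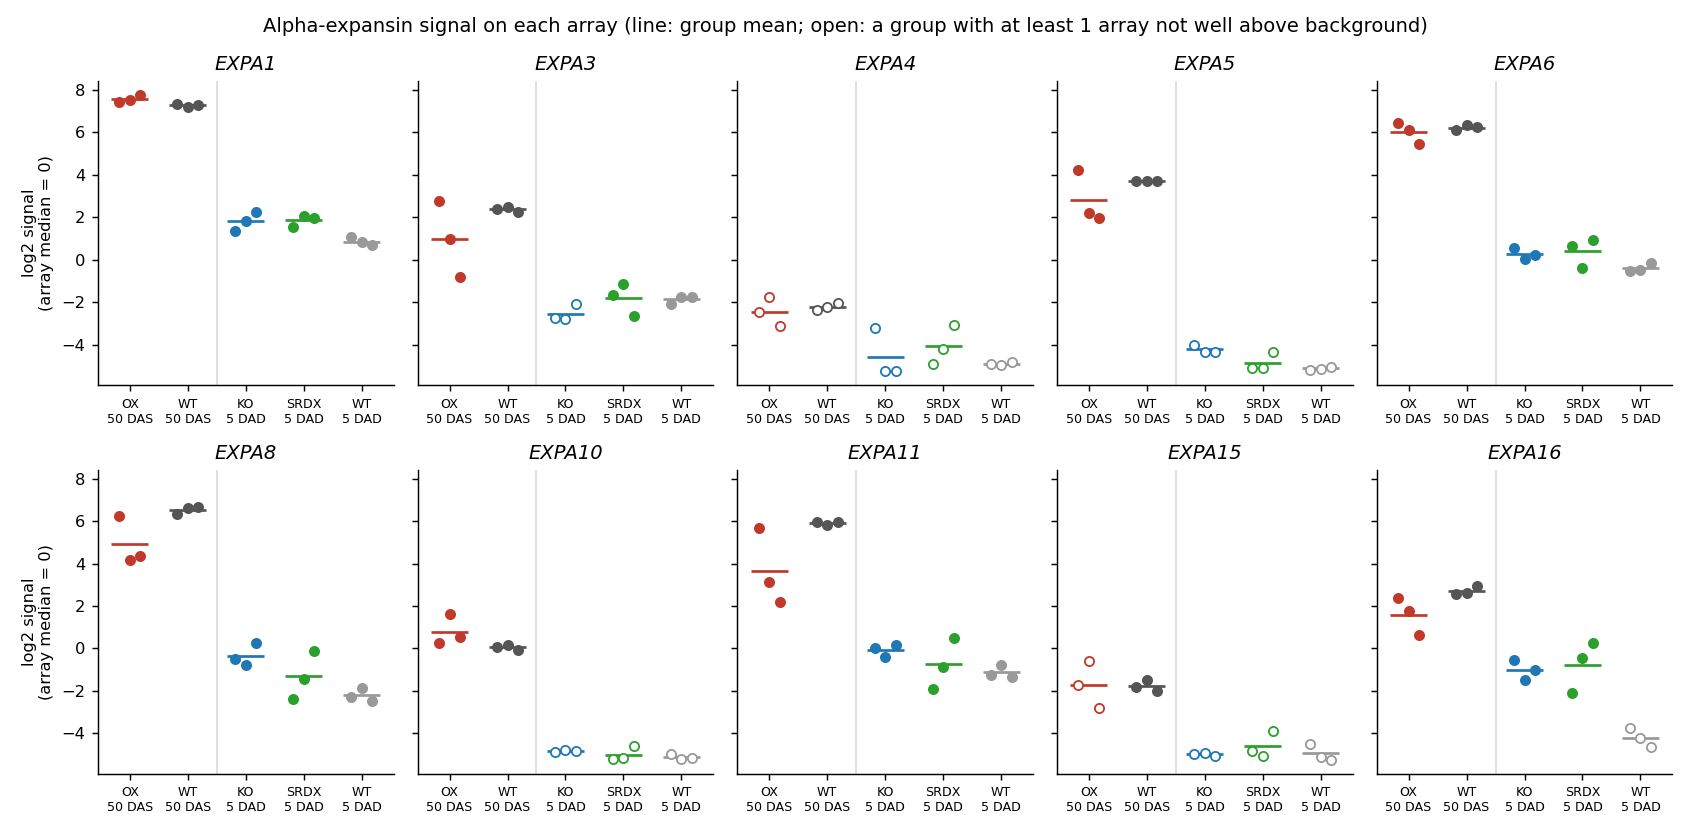
Log2 signal of each of the 10 alpha-expansins on every array, with the array median at 0. Points are arrays, lines are group means of 3 arrays, and open points mark groups in which at least 1 array was not well above background. The group means of OX and WT leaves at 50 DAS lie above those of the 3 dark-treated groups for every gene, with single arrays of OX and SRDX touching at *EXPA4*, and *EXPA16* is the gene whose KO and SRDX points stand farthest above those of dark-treated WT plants.

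The question in the OX plants was how the same genes behaved in leaves that made more ANAC046. *EXPA8*, *EXPA11* and *EXPA16* were lower in all 3 OX lines than on any WT array, *EXPA1* and *EXPA10* were higher in all 3, and the other 5 overlapped. Among all 20439 genes tested, 21.1% had all OX lines below WT and 12.9% all above. The means differed from WT by between −2.24 (*EXPA11*) and 0.75 (*EXPA10*) on the log2 scale. None of the 9 alpha-expansins tested was past the limit (a Benjamini-Hochberg adjusted p under 0.15 in limma), and 3 had an unadjusted p under 0.05. Of the genes tested, 0.0979% were past the limit (0.093% higher and 0.00489% lower in OX) and 23.1% had an unadjusted p under 0.05.

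*EXPA11* had log2 signals of 5.66, 3.11 and 2.20 in OX lines 1, 2 and 3, against 5.94, 5.81 and 5.95 in WT leaves. Its mean difference of −2.24 had a standard error of 0.85 and an adjusted p of 0.208 (limma with Benjamini-Hochberg adjustment). Lines 2 and 3 lay far below WT, and line 1 lay just below it.

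Line 1 was also the one nearest to WT in *EXPA8*, with 6.26, 4.18 and 4.35 in OX lines 1, 2 and 3, against 6.35, 6.63 and 6.66 in WT leaves. The difference was −1.61 (standard error 0.56, limma adjusted p = 0.20). The other 2 probes of *EXPA8* gave −2.32 and −1.55.

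*EXPA16* had 2.37, 1.78 and 0.64 in OX lines 1, 2 and 3, against 2.56, 2.60 and 2.95 in WT leaves. The difference of −1.11 (standard error 0.44, limma adjusted p = 0.214) was 2.16-fold, and its second probe gave −1.48. Line 3 was the lowest and line 1 stood nearest to WT.

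*EXPA5* and *EXPA3* split the lines. *EXPA5* had 4.23, 2.21 and 1.98 in OX lines 1, 2 and 3, against 3.69, 3.70 and 3.72 in WT leaves, so that line 1 lay above WT and the other two below it. *EXPA3* had 2.77, 0.97 and −0.81 in OX lines 1, 2 and 3, against 2.37, 2.48 and 2.26 in WT leaves. Their differences were −0.90 (standard error 0.59, limma adjusted p = 0.35) and −1.39 (standard error 0.85, limma adjusted p = 0.32).

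*EXPA10* and *EXPA1* went the other way. *EXPA10* had 0.24, 1.62 and 0.53 in OX lines 1, 2 and 3, against 0.08, 0.15 and −0.07 in WT leaves, a difference of 0.75 (standard error 0.36, limma adjusted p = 0.254), with 0.82 at its second probe. *EXPA1* had 7.44, 7.51 and 7.77 in OX lines 1, 2 and 3, against 7.34, 7.20 and 7.30 in WT leaves. That difference was 0.30 (standard error 0.15, limma adjusted p = 0.254), or 1.23-fold.

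*EXPA6* (difference −0.22, limma adjusted p = 0.602) and *EXPA15* (0.06, limma adjusted p = 0.941) lay close to WT on average. *EXPA15* was well above background in 2 of the 3 OX lines, and its OX lines ran from −2.79 to −0.60, against −2.02 to −1.50 in WT leaves. *EXPA4* was not tested, since it was well above background in 1 OX line and on 2 WT arrays, and its mean difference was −0.24.

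The OX lines differed among themselves more than the WT arrays did. The median difference of the 10 genes from the WT mean was 0.10 in line 1, −0.51 in line 2 and −1.37 in line 3, while single WT arrays gave −0.02 to 0.04. Over all genes, the SD of the differences was 0.50 in line 1, 1.11 in line 2 and 1.25 in line 3. Without line 1, which had the lowest *ANAC046* signal of the OX lines, 7 of the 9 genes were past the limit. *EXPA8* (difference −2.28, adjusted p = 0.00133), *EXPA5* (−1.61, 0.0019), *EXPA11* (−3.25, 0.00246), *EXPA3* (−2.29, 0.027) and *EXPA16* (−1.49, 0.0318) were then lower in limma, and *EXPA10* (1.02, 0.0665) and *EXPA1* (0.36, 0.0917) higher. In that fit the limit was passed by 5499 higher and 6633 lower genes of 21236 tested. Without line 3 no alpha-expansin was past the limit, and the differences of *EXPA3*, *EXPA5* and *EXPA16* were −0.50, −0.48 and −0.63. Without line 2, *EXPA10* was at 0.34, again with none past the limit.

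Storey's q-values, which the Methods used, also gave for the full set of lines 7 of 9 past the limit, 2 higher and 5 lower, beside 5042 higher and 7015 lower genes in all. Markers of leaf and root were read on the same arrays. The summed signal of the 6 leaf markers was 7300, 7350 and 6130 times the array median in OX lines 1, 2 and 3, against 6870 to 7230 times in WT leaves, and that of the 7 root markers was 1.61, 6.97 and 1.76, against 1.02 to 1.11. Of the root markers, 2, 3 and 2 were well above background in OX lines 1, 2 and 3, against 1 or 2 on the WT arrays, and *IRT1*, a root iron transporter, was so on none. The nitrate transporter *NRT2:1* (difference 1.07, limma adjusted p = 0.197), the only root marker tested, was above WT in all 3 lines. So was the leaf marker *LHCB2.1* (0.71, limma adjusted p = 0.198), and neither passed the limit. Of the 6 leaf markers, 3 had means above WT and 3 below, with *CA1* the lowest (−0.59, limma adjusted p = 0.295). *PYK10* and *TIP2;3* had means above WT. *SHV2*, *IRT1*, *EXPA7* and *EXPA18* had means below WT and were not well above background on any of these arrays. The part of the share of leaf or root RNA in the OX values was not tested.

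**Figure D2:**
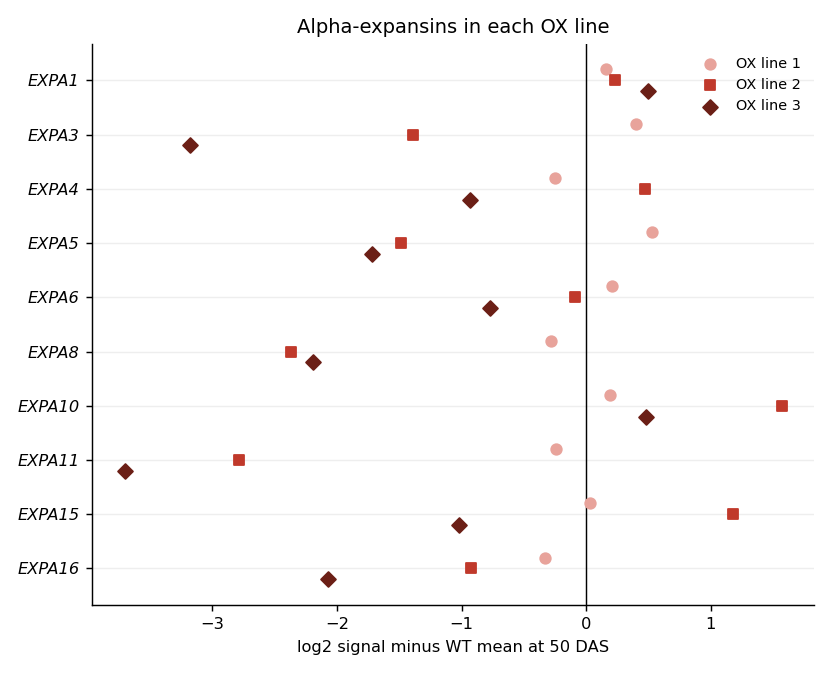
Difference of each OX line from the mean of the 3 WT arrays at 50 DAS, in log2 units, for the 10 alpha-expansins. Points left of the line at 0 are lower in OX, and line 1 lies within 0.53 of WT for every gene, whereas lines 2 and 3 reach −2.79 and −3.70 at *EXPA11*.

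In dark-treated KO plants, 7 of the 10 alpha-expansins had all 3 arrays above all 3 WT arrays and none had all 3 below. Among the 25192 genes tested, 26.6% had all 3 KO arrays above WT and 20.6% all 3 below. Since this comparison took part in the choice of the genes, nothing is read from these counts. The median difference of the 10 genes, KO minus WT, was 0.77, against 0.03 over all genes, and 6 of the 10 passed the filter on dim probes. Of the 7 genes, *EXPA5* and *EXPA10* were not well above background in KO or in WT at the probes used, so that the order of these values has no meaning. The second probe of *EXPA5*, well above background on 1 KO array, gave a difference of 0.85.

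*EXPA16* had log2 signals of −0.55, −1.48 and −1.03 in KO plants, against −3.75, −4.21 and −4.65 in WT plants. The groups were well apart, with a mean difference of 3.18 (standard error 0.55), or 9.09-fold. All KO arrays but only 1 WT array were well above background, so the size of the difference depends on how dim signals are treated. It was 2.46 with scaling to the 75th percentile, 2.26 in the authors' normalized table and 0.92 with normexp background correction, which adds an offset that shrinks differences between dim spots. The second probe of *EXPA16* gave 2.08, with 1 KO array and no WT array well above background.

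*EXPA8* had −0.48, −0.80 and 0.28 in KO plants, against −2.29, −1.85 and −2.47 in WT plants, a difference of 1.87 (standard error 0.53). One of its other probes gave 2.48, and the remaining one, which was well above background on no KO array and 1 WT array, gave 0.17. *EXPA11* had 0.02, −0.42 and 0.15 in KO plants, against −1.26, −0.76 and −1.35 in WT plants. The KO arrays of both genes lay above every WT array, and the difference of *EXPA11* was 1.04 (standard error 0.52).

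*EXPA1* had 1.36, 1.82 and 2.25 in KO plants, against 1.05, 0.82 and 0.70 in WT plants, and *EXPA6* had 0.55, 0.06 and 0.21 in KO plants, against −0.53, −0.47 and −0.14 in WT plants. Their differences were 0.95 (standard error 0.25) and 0.66 (standard error 0.32), small beside that of *EXPA16*. With normexp correction the differences of *EXPA8* and *EXPA11* in KO were 0.93 and 0.67, and in the authors' table they were 0.97 and 0.48, with 0.47 for *EXPA1* and 0.29 for *EXPA6*. *EXPA3* stood apart in direction, with −2.75, −2.79 and −2.07 in KO plants, against −2.07, −1.77 and −1.74 in WT plants, a difference of −0.67 (standard error 0.37). Its KO arrays touched the range of WT, and 1 of the 3 was well above background. The difference was −1.29 with scaling to the 75th percentile, −0.43 in the authors' table and −0.24 with normexp correction. The second probe of *EXPA3*, well above background on no KO or dark-treated WT array, gave 0.03.

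SRDX plants gave *EXPA16* signals of −2.09, −0.45 and 0.26 in lines 1, 2 and 3, against −3.75, −4.21 and −4.65 in WT plants. The lines spread over more than 2 log2 units, and even the lowest lay above every WT array. The mean difference was 3.44 (standard error 0.55), or 10.9-fold, and it was 3.0 with scaling to the 75th percentile, 2.35 in the authors' table and 1.15 with normexp correction. At the second probe it was 1.92.

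Besides *EXPA16*, *EXPA1* was the other gene with all SRDX arrays above all WT arrays. It had 1.56, 2.07 and 1.99 in SRDX lines 1, 2 and 3, against 1.05, 0.82 and 0.70 in WT plants, a difference of 1.02 (standard error 0.25), which was 0.42 in the authors' table. The remaining 8 genes overlapped WT. Among all 25192 genes, 17.5% had all SRDX arrays above WT and 15.2% all below, which is given beside the 2 of 10 without a reading because these values also took part in the choice.

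The mean difference was above 0 for all 10 genes in SRDX, but the lines were unequal. At the probes used, 4 of the genes were not well above background on any SRDX or WT array. The signs of those 4 differences have no meaning. The median of the 10 genes was 0.57, against −0.04 over all genes that passed the filter on dim probes. Over the 6 alpha-expansins that passed it, the median was 0.84. For the 10 genes it was 0.25 with normexp correction and 0.29 in the authors' table. By line, the median of the 10 genes, dim ones included, was 0.07 in line 1, 0.47 in line 2 and 1.21 in line 3. *EXPA8* had −2.40, −1.43 and −0.11 in SRDX lines 1, 2 and 3, against −2.29, −1.85 and −2.47 in WT plants. *EXPA11* had −1.89, −0.87 and 0.51 in the same lines, against −1.26, −0.76 and −1.35 in WT plants. Line 3 was the highest of the lines for both and line 1 the lowest.

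The share of spots well above background in SRDX line 3 (68.4%) was nearer to the KO arrays of its slide than to lines 1 and 2, and the part of the slide in the values of line 3 was not tested. Without line 3, the median difference of the 10 genes from WT was 0.30. *EXPA6* had 0.66, −0.38 and 0.91 in SRDX lines 1, 2 and 3, against −0.53, −0.47 and −0.14 in WT plants, and *EXPA3* had −1.64, −1.16 and −2.63 in the same lines, against −2.07, −1.77 and −1.74 in WT plants. Line 2 of *EXPA6* lay inside the range of WT, and *EXPA3* differed by 0.05 on average. With scaling to the 75th percentile the mean differences of *EXPA3*, *EXPA10* and *EXPA15* in SRDX turned to −0.19, −0.19 and −0.03, and those of *EXPA10* and *EXPA4* in KO turned to −0.27 and −0.28. With normexp correction *EXPA10* in KO was at −0.01.

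**Figure D3:**
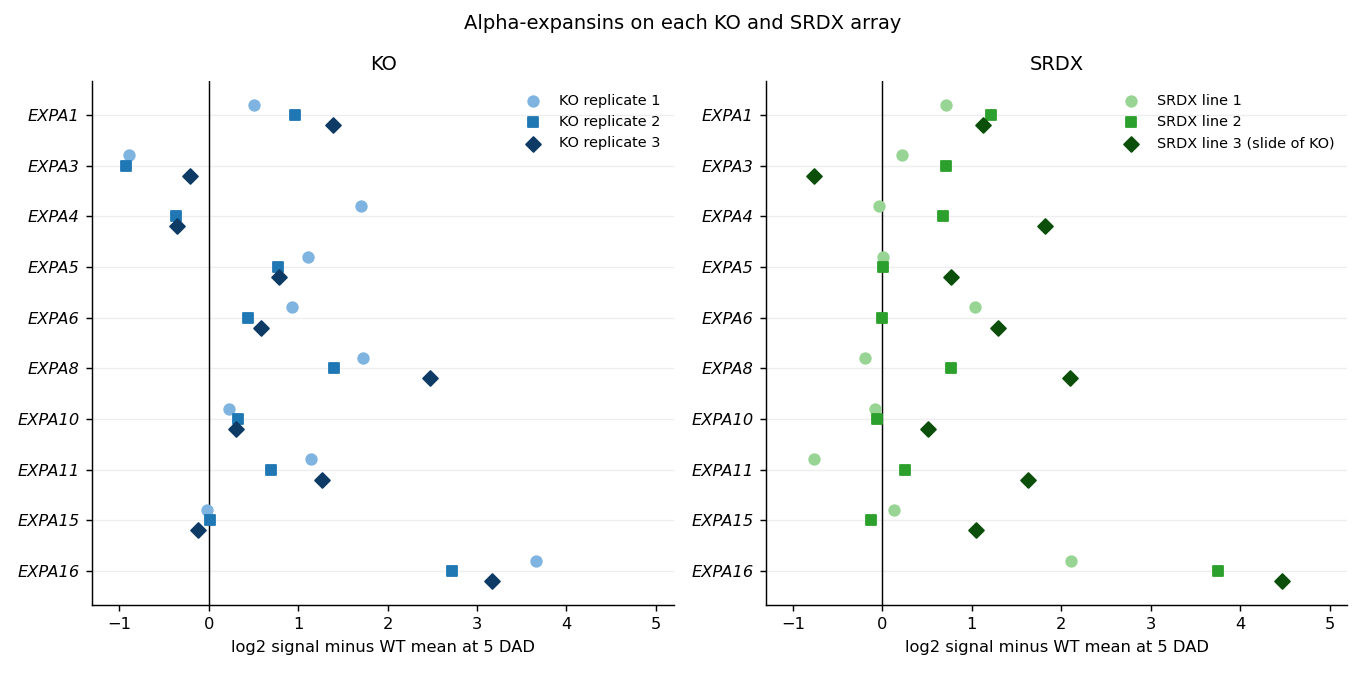
Difference of each KO array (left) and each SRDX line (right) from the mean of the 3 dark-treated WT arrays, in log2 units, for the 10 alpha-expansins. *EXPA16* lies farthest to the right in both, between 2.72 and 3.66 in KO and between 2.11 and 4.47 in SRDX, and SRDX line 3 lies to the right of line 1 for every gene except *EXPA3*.

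Other readings moved beside these values. All 6 leaf markers were higher in KO and in SRDX than in WT and past the limit, with median differences of 0.62 in KO and 0.89 in SRDX. Their summed signal was 725 to 934 times the array median in KO and 715 to 1040 times in SRDX, against 504 to 555 times in WT, with all 6 well above background on every array. Of the 7 root markers, 3 were well above background on each KO array and 4 to 6 on the SRDX arrays, against 5 or 6 on the WT arrays. The sum of the root markers was 1.02 to 2.38 in KO and 1.33 to 1.51 in SRDX, against 1.64 to 2.88 in WT. The iron transporter *IRT1*, a root marker, stayed below that flag's level on every array of these 3 groups. Of the 6 root markers tested, 3 were lower in KO and 1 in SRDX past the limit, and none was higher. Among all genes tested, 14.2% were lower and 18.2% higher in KO, and 8.79% lower and 11.6% higher in SRDX. *SHV2* and *EXPA18*, both among those lower in KO, entered the test through WT alone, with no KO array well above background. *TIP2;3* went the other way, by 1.36 in KO and 0.91 in SRDX, without passing the limit. The part of the share of leaf or root RNA in the alpha-expansin values was not tested.

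SRDX and KO plants were also compared with each other. *EXPA16* was picked out for its values in these same KO and SRDX arrays, so its difference of 0.26 (standard error 0.55), SRDX minus KO, is given with no test. None of the other 5 alpha-expansins in the fit differed past the limit, and none had an unadjusted p under 0.05. Over all 25192 genes, 0.143% passed the limit with higher and 0.131% with lower signals in SRDX, and 12% had an unadjusted p under 0.05. The difference of SRDX minus KO was 0.06 (standard error 0.25, limma adjusted p = 0.95) for *EXPA1* and 0.12 (standard error 0.32, 0.922) for *EXPA6*. It was −0.98 (standard error 0.53, limma adjusted p = 0.504) for *EXPA8*, −0.67 (standard error 0.52, 0.647) for *EXPA11* and 0.72 (standard error 0.37, 0.472) for *EXPA3*. *EXPA3* was well above background on all 3 SRDX arrays but on only 1 KO array. Its difference was 0.3 with normexp correction. For *EXPA8* and *EXPA11*, with standard errors of 0.53 and 0.52, a difference of 1 log2 unit lies within 2 standard errors of 0.

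The comparison of SRDX with KO turned on line 3. Without it, *EXPA3* was 1.14 higher (adjusted p = 0.051), *EXPA8* lower (difference −1.58, adjusted p = 0.0577) and *EXPA11* lower (difference −1.3, adjusted p = 0.0677) in SRDX than in KO by limma, in a fit with 2065 genes higher and 1315 lower past the limit. The value of *EXPA3* rests in part on dim KO signals, since its probe was well above background on only 1 KO array. It entered the fit through SRDX and WT, so its call is not read as a difference between SRDX and KO. On the slide that line 3 shared with the KO arrays, the differences of SRDX minus KO were −0.10, 0.23 and 0.59 for the same 3 genes. Their signs were thus the reverse of those in lines 1 and 2. This fit held 1 SRDX array, which was assumed to vary like the KO arrays.

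The order of group means is a description, since it takes in the values behind the choice. Among the 6 genes whose probe in use was well above background on some dark-treated arrays, WT at 5 DAD was lowest for 5 and KO for *EXPA3*. The 2 groups at 50 DAS were the highest for all 10. The lowest value of an OX or WT leaf lay above the highest dark-treated value except for *EXPA4*, whose arrays of SRDX (up to −3.07) and OX (down to −3.14) touched. For the 5 genes with dark-treated WT lowest, this order by itself puts KO and SRDX next to each other. The KO and SRDX arrays overlapped in all 6 genes. Over all genes, 3.59% had all SRDX arrays above KO and 7.99% all below.

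The genes whose signals followed that of *EXPA16* most closely were found by the mean absolute difference in log2 signal over the 15 arrays, after subtraction of each gene's own mean. Among 16843 genes the median of this measure was 2.078. It was smallest for AT1G10380 (0.359), *MEE47* (AT4G00950, 0.431), AT1G09310 (0.459), *GRP23* (AT2G32690, 0.514) and *OEP6* (AT3G63160, 0.515). AT1G10380 had group means of −0.55 in KO, −1.14 in SRDX and −3.82 in dark-treated WT plants, and of 1.99 in OX and 2.55 in WT leaves. All 5 were picked for likeness over these same arrays, so that sharing the order of *EXPA16* follows from the choice. In that order the group mean was lowest in dark-treated WT plants, higher in KO and SRDX, and highest in leaves. The subtraction leaves each gene's own level out of the measure, and *GRP23* was at 4.57 even in dark-treated WT plants. Of the 5, 4 were also found with scaling to the 75th percentile.

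Of the other alpha-expansins, 5 were well above background often enough at both stages to be ranked, and all came after many other genes. The nearest was *EXPA1*, at rank 906 with 1.187, followed by *EXPA11* (1034), *EXPA3* (1085), *EXPA6* (1376) and *EXPA8* (2377). The measure takes in all differences between stages, and no test was made of it.

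The array held 24 other expansin genes. None of 12 tested was past the limit in OX, where 1 had an unadjusted p under 0.05. Their median log2 difference was 0.13 in OX, against −0.07 over all genes. In KO, 6 were higher and 5 lower of 13 tested (limma with Benjamini-Hochberg adjustment), against 18.2% higher and 14.2% lower among all genes. With scaling to the 75th percentile, 4 were higher and 6 lower in KO, and 1 was higher and 1 lower in SRDX. In SRDX, 4 were higher and 1 lower of 13, against 11.6% higher and 8.79% lower among all genes. The medians were 0.44 in KO and 0.18 in SRDX. Among the 6 higher in KO, *EXPA14* entered the test through KO and SRDX alone, with 2 WT arrays well above background.

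The largest rises among them in KO were in 2 expansin-like genes, *EXLA2* (difference 1.66, limma adjusted p = 0.0398) and *EXLA1* (1.42, limma adjusted p = 0.0185). *EXLA1*, *EXLA2* and *EXLA3* were all past the limit as higher in both KO and SRDX, and this group of 3 was picked after its values were seen. In SRDX the largest rises with arrays apart from WT were *EXPA9* (1.05, limma adjusted p = 0.0989) and *EXLA3* (0.99, limma adjusted p = 0.141). With normexp correction the difference was 0.48 for *EXLA2* in KO and 0.42 for *EXPA9* in SRDX.

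The largest falls in KO were in the beta-expansins *EXPB3* and *EXPB1* (differences −1.31 and −1.22, limma adjusted p = 0.0925 and 0.0524). Both probes were well above background on all WT arrays and on no KO array, and no lower bound above 1-fold could be set. They entered the test through WT alone, as did *EXPA18*, so that 3 of the 5 lower genes rest on KO signals that were not well above background. With normexp correction their differences were −0.14 and −0.30. *EXLB1* was the single gene lower in SRDX, with 5.02, 3.98 and 3.70 in SRDX lines 1, 2 and 3, against 5.25, 5.21 and 5.65 in WT plants (difference −1.13, limma adjusted p = 0.0713). All 3 lines lay below WT, line 1 by the least. Without SRDX line 3, or without any single WT array, none of these other expansins was past the limit in SRDX. In KO the count of 11 was 6 without WT replicate 2 and 7 without WT replicate 1 or 3. Counts over all genes fell in the same fits. In SRDX they were 1114 higher and 753 lower without line 3, and 656 and 333 without WT replicate 2, against 2925 and 2214 with every array. In KO they were 1830 higher and 1229 lower without WT replicate 2, against 4593 and 3571.

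Of 33 XTH genes on the array, 24 were tested. None was past the limit in OX, although 13 had an unadjusted p under 0.05, 8 had all OX lines above WT and 6 all below. The shares of all genes with lines apart from WT were those given above for OX. Without OX line 1, 20 of the 24 were past the limit, 9 higher and 11 lower. In that fit 5499 higher and 6633 lower genes of 21236 tested passed it as well.

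In KO, 13 XTH genes were higher and 2 lower, and in SRDX 5 were higher and 3 lower (limma with Benjamini-Hochberg adjustment). The shares of all genes were those given for the other expansins. *XTH9* was among the largest rises in both, with 2.67, 2.37 and 2.85 in KO plants, against 0.80, 0.65 and 1.12 in WT plants (difference 1.77, limma adjusted p = 0.0346). In SRDX lines 1, 2 and 3 it had 1.23, 2.89 and 2.95 (difference 1.5, limma adjusted p = 0.0697). Every KO and SRDX array lay above WT, with SRDX line 1 nearest to it.

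The other large rise in KO was *XTH15* (1.91, limma adjusted p = 0.0565), and in SRDX it was *XTH8* (2.29, limma adjusted p = 0.0131). *XTH8* was well above background on 1 WT array and differed by 0.56 in SRDX with normexp correction. It entered the test through KO and SRDX alone. Its p-value in SRDX and its place among the higher genes in KO therefore rest on WT signals mostly not well above background. *XTH10* was the largest fall in both, with 3.07, 4.86 and 5.89 in KO plants and 5.56, 5.45 and 4.10 in SRDX lines 1, 2 and 3, against 6.81, 7.16 and 6.63 in WT plants. Its differences were −2.26 in KO (limma adjusted p = 0.0577) and −1.83 in SRDX (limma adjusted p = 0.13). *XTH17* in KO (−1.11, limma adjusted p = 0.0932) and *XTH11* in SRDX (−0.60, limma adjusted p = 0.0813) were the next falls among the XTH genes past the limit. *XTH18* in SRDX, at −1.09 (limma adjusted p = 0.217), did not pass it. The XTH counts were 9 in KO without WT replicate 2 or 3. In SRDX they were 1 without WT replicate 2, 2 without WT replicate 1 or without SRDX line 3, and 3 without WT replicate 3. The fall of the counts over all genes in such fits is given above for the other expansins.

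**Figure D4:**
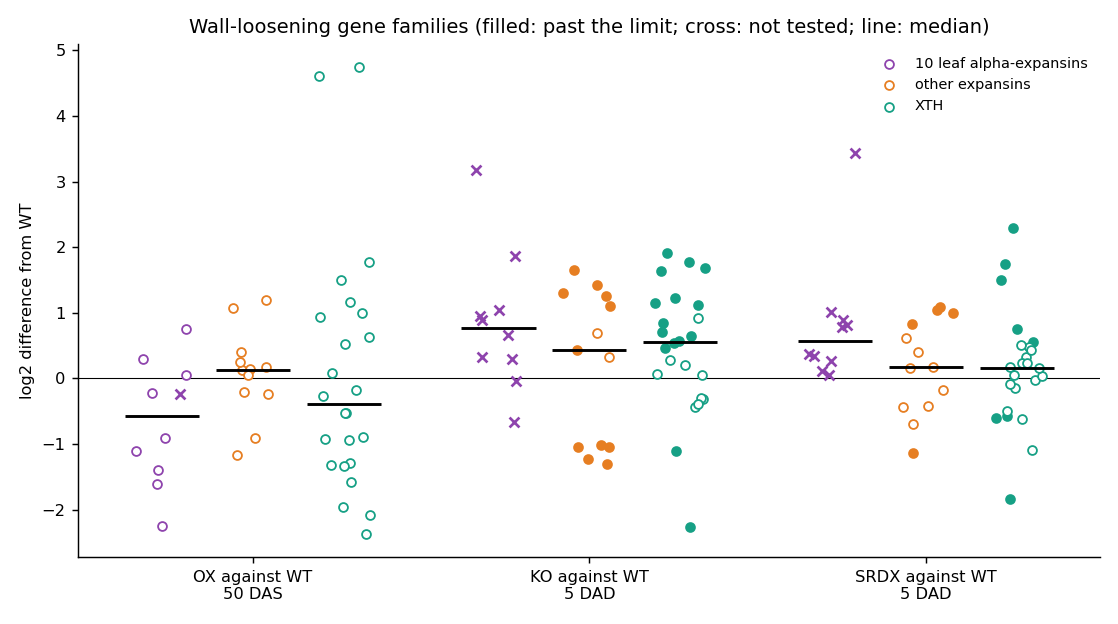
Log2 difference from WT for the 10 leaf alpha-expansins, the other expansins and the XTH genes in OX at 50 DAS and in KO and SRDX at 5 DAD. Filled points are past the limit, open points are not, and crosses are alpha-expansins that were not tested. Other expansins and XTH genes that were not tested are not drawn. Black lines are medians of the points drawn. For the 10 alpha-expansins, dim ones included, they are −0.57 in OX, 0.77 in KO and 0.57 in SRDX.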

How the data were processed

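Agilent one-color arrays were analysed, 3 per group. The authors deposited spot intensity values from Feature Extraction (version 11.5.1.1 per the file headers, 9.1.3.1 per the labels), background-subtracted and not scaled between arrays. The authors also deposited a table of natural log values, divided by the array median and quantile normalized with other arrays. Its base was inferred from 13 of 15 array pairs, and it served as an alternative only.

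Spots with outlier flags (1 to 13 per array) were left out. Intensities were divided by the array median, averaged per probe, quantile normalized over 15 arrays and turned into log2. Probes were matched by accession to RefSeq names of TAIR10.1 (34348 of 43603 probes), without coordinates. Probes with no locus that shared a name in the files counted as 1 gene. Loci and such names together made 34290 genes before the filter on dim probes. The brightest probe stood for its gene. *EXPA3* is listed as *EXP3* there.

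A gene had to be well above background on all arrays of 1 or more of the compared groups. Such genes were tested with limma 3.58.1 in R 4.3.3 (lmFit, eBayes), with 6 arrays at 50 DAS and 9 at 5 DAD fitted apart and a Benjamini-Hochberg limit of 0.15, the false discovery rate of the Methods. The limma fit was also tested on simulated arrays in which 200 genes changed. In the design of OX against WT over 20422 genes, 68 were found among 79 calls at a log2 change of 1 and 158 among 205 calls at 2. In that of KO against WT over 25171 genes, 60 were found among 66 calls at 1 and 171 among 210 calls at 2. At a change of 2, the share of wrong calls was above the limit of 0.15 in both designs. The simulation gave all groups the same spread for a gene, whereas the real OX lines varied more than WT. It therefore cannot show how the fit behaves on the real arrays. Alternatives were 75th percentile scaling, normexp with an offset of 50 on median spot signals, the authors' table, the mean of all probes, other filters on dim probes, 1 fit of 15 arrays, Storey q-values, a limit of 0.05, a block for the replicate number or for the slide, and each array left out.

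The genes and lists were chosen with earlier results of these data known. Other genes were named by rule: up to 2 rises and 2 falls per list and comparison, past the limit with all arrays beyond WT, and the 5 genes most like *EXPA16*. Lists of other expansins and XTH genes came from symbols and synonyms in the name table, which puts *PNP-A* among the expansins. Root markers include *EXPA7* and *EXPA18*, which are also in the list of other expansins. Protein, promoter and probe sequences were not used here. Python 3.11.15 with matplotlib 3.10.9 drew the figures.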

Additional observations from a re-analysis of the deposited data

How the results depend on the processing

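With 3 arrays per group, calls near the limit depend on single arrays and on how p-values are adjusted. For the median of the 10 alpha-expansins in KO minus WT, the value of 0.77 was 0.36 with 75th percentile scaling, 0.33 with normexp and 0.42 in the authors' table. The offset of normexp shrinks differences between dim spots by construction, and 4 of the 10 genes had the probe used below background on every array at 5 DAD. In SRDX minus WT, 0.57 was 0.25 with normexp and 0.29 in the authors' table. Without single arrays it was 0.65 to 0.86 in KO and 0.30 to 0.79 in SRDX. In OX the count of alpha-expansins past the limit, 0, was 3 in 1 fit of all 15 arrays and 7 with Storey q-values, and 0 to 7 without single arrays. Over all genes, these 2 settings gave 2424 higher and 3269 lower, and 5042 higher and 7015 lower, against 19 and 1. With the replicate number as a block it stayed 0, with 0 genes in all. With Storey q-values, 4 other expansins and 19 XTH genes were past the limit in OX. Without single arrays these counts were 0 to 4 and 0 to 20 in OX, and 6 to 10 and 9 to 14 in KO. Over all genes, the OX fits ran from 0 past the limit without WT replicate 2 to 5499 higher and 6633 lower without line 1. In SRDX the other expansins, 5, numbered 2 with 75th percentile scaling, 3 with the replicate block and 2 with slide as a random block, and without single arrays 0 to 6, while XTH genes numbered 1 to 11. For SRDX against KO, leaving out arrays gave 0 to 3. The replicate numbers showed no pairing with WT, though deviations from means of 3 arrays cannot exclude one. Same-numbered arrays correlated at −0.205, −0.263 and 0.133 for OX and WT, −0.187, −0.048 and −0.013 for KO and WT, and −0.228, −0.075 and 0.018 for SRDX and WT. For SRDX and KO they correlated at 0.298, 0.715 and −0.126, and the highest value between other numbers was 0.48. There, 2 of 3 SRDX arrays correlated best with their own number. In KO the split over all genes was 3733 higher and 5414 lower with 75th percentile scaling, against 4593 and 3571. Differences that changed sign were *EXPA15* in OX (−0.01 in the authors' table, −0.49 to 0.60 without single arrays), *EXPA6* in OX (−0.43 to 0.06 without single arrays), and in SRDX minus KO *EXPA1* (−0.05 in the authors' table), *EXPA3*, *EXPA8* and *EXPA11* (−0.10, 0.23 and 0.59, with slide as a fixed block and on the shared slide). Without single arrays, SRDX minus KO was −0.16 to 0.28 for *EXPA1*, −0.14 to 0.51 for *EXPA6* and −0.25 to 0.93 for *EXPA16*. For dark-treated WT minus WT leaves, alternatives chosen after seeing the data gave medians of −6.39 with 75th percentile scaling, −4.35 with normexp and −4.53 in the authors' table. Where no value above shows it, the cause was not tested.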
